A study of Mus musculus with 6 samples.

Results

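Megakaryocytes are the large BM cells that shed platelets, and they arise from progenitors that can also form red cells. The genes of this lineage described here are Pf4, Ppbp, Itga2b, Itgb3, Gp1bb, Gp9, Gp6, Vwf, Treml1 and Selp. They were taken by name, with earlier results of these data known. They are 10 of the 17060 genes listed in at least 1 culture and 10 of the 12306 genes tested. The cells were lineage-negative BM cells of WT mice, which are BM cells depleted of those bearing markers of mature blood lineages. They grew for 48 hours in EPO-containing medium, in which EPO (erythropoietin) drives red cell production. The control cultures received DMSO, the solvent, and the treated cultures received NUP-17d at 10 μM, a dose given in the study's text, from the start of culture. NUP-17d is a mixture of stereoisomers that was selected to inhibit Plek2, a paralog of the platelet protein pleckstrin that acts downstream of JAK2 in erythroblasts. The labels name the harvested cells erythroblasts and give no age, and poly(A) RNA was sequenced in bulk. Each group had 3 cultures, numbered in the labels. No source used here says whether they came from separate mice, so p-values measure the spread between these cultures, which may be technical.

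Platelets stop bleeding in steps, each with its own surface receptors. The glycoprotein Ib-IX-V complex binds von Willebrand factor on damaged vessels, glycoprotein VI binds collagen, and integrin αIIbβ3 binds fibrinogen and links platelets to each other. Alpha granules release chemokines and adhesive proteins and bring P-selectin and TREML1 to the surface. Megakaryocytes make these proteins, several of them early in maturation, and GATA1, FLI1, RUNX1 and NFE2 are among the transcription factors known to drive their genes.

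The libraries were of nearly equal depth: expected counts (estimated reads per gene) summed to between 20278400 and 20419000 with DMSO and between 20076400 and 20170200 with NUP-17d. Hemoglobin genes took 19.1% ± 1.04 (SD, n = 3) of the reads with DMSO and 12.2% ± 0.723 (SD, n = 3) with NUP-17d, which left a larger share of reads to all other genes. Levels are therefore given as TMM-scaled CPM, which is the read count relative to a library size corrected for composition. Plek2, the target, was at 52.6 ± 2.85 with DMSO and 39.9 ± 1.32 with NUP-17d on that scale (log2 fold change -0.40; adjusted p = 1.78e-07, edgeR quasi-likelihood, Benjamini-Hochberg adjusted, as for every adjusted p below unless another tool is named). A gene is called higher or lower when its adjusted p, over all genes tested, is under 0.05.

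With NUP-17d, 7 of these genes were called higher, 1 was called lower and 2 were not called. Over all genes tested, 16.4% were called higher and 18.9% lower. The groups did not overlap in 8 of the 10 genes, against 46.0% of all genes tested. The median log2 fold change of the 10 was 0.19, beside 0.01 over all genes tested. With libraries scaled by their totals only, 9 of the 10 were called higher and 1 lower, but 68.7% of all genes tested were then called higher and 5.34% lower, and the median of all genes moved to 0.28 while that of the 10 was 0.46. Together the 10 genes held between 0.0478% and 0.0546% of the reads with DMSO and between 0.0692% and 0.0720% with NUP-17d. These shares are not corrected for composition. On the TMM scale the mean sum of the 10 was 561 CPM with DMSO and 642 with NUP-17d. In bulk RNA, a change in the number of cells of a type and a change in RNA per cell cannot be told apart.

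**Figure D1:**
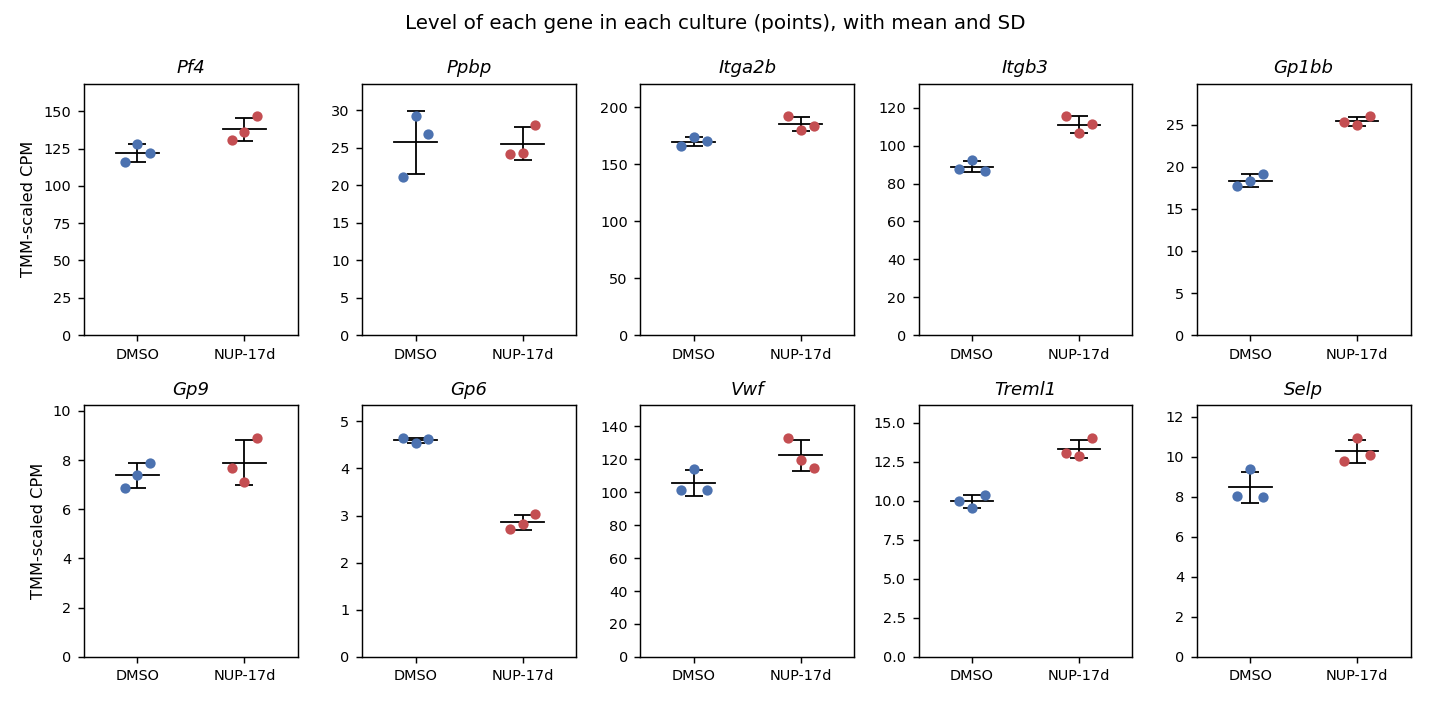
TMM-scaled CPM (vertical axis, from 0) of the 10 genes in each of the 3 DMSO and 3 NUP-17d cultures (points), with the mean (long bar) and SD (short bars). Gp6 alone among the 10 is lower in every NUP-17d culture, Ppbp and Gp9 overlap between groups, and the other 7 genes are higher in every NUP-17d culture.

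The start regions of 4 of the genes are shown because they frame the results that follow: Pf4 and Itga2b have the highest levels per length of the 10, Treml1 was among the 3 with the largest rise, and Gp6 was the one gene that fell. Each run comes from RefSeq's promoter table on GRCm38.p6, a patch release of the assembly also called mm10, the build named in the submitters' processing notes, and is written on the gene's own strand. It ends at the last base before the gene in RefSeq's annotation and begins 250 bases before the start that the table uses. For Gp6 the table's start lies inside the gene's annotated span, so the run is shorter, at 143 bases. Capitals mark short words that match binding motifs, searched on both strands as AGATAA or AGATAG or TGATAA or TGATAG for GATA factors, CCGGAA or AGGAAG for ETS factors, and TGTGGT for RUNX factors.
Pf4, chr5:90772185-90772434, plus strand: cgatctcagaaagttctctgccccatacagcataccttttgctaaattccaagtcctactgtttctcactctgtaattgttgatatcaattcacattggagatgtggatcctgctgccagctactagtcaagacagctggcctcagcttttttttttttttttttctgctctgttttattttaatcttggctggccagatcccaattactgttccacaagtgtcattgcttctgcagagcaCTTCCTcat
Itga2b, chr11:102469884-102470133, minus strand: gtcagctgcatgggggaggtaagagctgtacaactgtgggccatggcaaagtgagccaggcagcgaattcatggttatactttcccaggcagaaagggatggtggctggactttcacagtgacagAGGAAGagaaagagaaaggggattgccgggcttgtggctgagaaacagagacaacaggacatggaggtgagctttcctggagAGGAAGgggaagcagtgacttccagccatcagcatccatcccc
Treml1, chr17:48359666-48359915, plus strand: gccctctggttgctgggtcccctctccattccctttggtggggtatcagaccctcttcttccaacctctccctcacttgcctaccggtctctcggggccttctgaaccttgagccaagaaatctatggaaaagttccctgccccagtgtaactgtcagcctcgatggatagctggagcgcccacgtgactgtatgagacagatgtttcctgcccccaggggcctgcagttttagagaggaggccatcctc
Gp6, chr7:4397852-4397994, minus strand: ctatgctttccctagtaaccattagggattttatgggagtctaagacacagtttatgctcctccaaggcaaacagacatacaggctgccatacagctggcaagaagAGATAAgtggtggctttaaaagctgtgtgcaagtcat
The Pf4 run holds an ETS word 9 bases before the start, and the Itga2b run holds a pair of ETS words 125 and 43 bases before it. The Gp6 run holds a GATA word 144 bases before the table's start, and the Treml1 run holds none of the words searched.

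Of the 10 genes, 8 matched an entry of the promoter table, all but Itgb3 and Vwf. In windows of 300 bases that also take in the first 50 transcribed bases, a GATA word stood in 3 of the 8 (Pf4, Gp1bb and Gp6), against 29.8% of the 32851 promoters of that length. An ETS word stood in 5 of the 8 (Pf4, Itga2b, Gp1bb, Gp9 and Selp), against 45.2% of all promoters. A RUNX word stood in 1 of the 8 (Gp9), against 16.8%. The Gp9 window, chr6:87777820-87778119, lies wholly inside that gene's annotated span, so its ETS and RUNX words do not lie upstream of the annotated gene. None of the words in these 8 windows overlapped one another. Genes that rose and the gene that fell both carried GATA words, and Treml1, which rose, carried none of the words searched in its window. These matches are descriptions of sequence only.

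Pf4 and Ppbp encode the platelet chemokines, both stored in alpha granules: platelet factor 4 (CXCL4), and pro-platelet basic protein, the precursor of CXCL7. The genes are neighbours, with Ppbp (Entrez 57349) at chr5:90768518-90770063 and Pf4 (Entrez 56744) at chr5:90772435-90773383, a gap of 2371 bases. Pf4 stood at 116, 128 and 122 CPM in DMSO cultures 1 to 3 and at 131, 136 and 147 in NUP-17d cultures 1 to 3. Every NUP-17d culture was above every DMSO culture. The mean went from 122 ± 5.87 to 138 ± 7.94 (SD, n = 3 each), a 1.13-fold rise (log2 fold change 0.17, SE 0.043, 95% interval 0.09 to 0.26, adjusted p = 0.00215).

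Ppbp stood at 21.1, 29.2 and 26.9 CPM with DMSO and at 24.2, 24.3 and 28.1 with NUP-17d. The groups overlapped, and the DMSO cultures held both the lowest and the highest value. Its log2 fold change was -0.01 with a 95% interval of -0.18 to 0.15 (adjusted p = 0.914) under TMM scaling and 0.25 (adjusted p = 0.0125) under library totals, so its direction and its call depended on the scaling. The ratio of Ppbp to Pf4 counts within a culture, which no scaling changes, was 0.210 ± 0.0252 with DMSO and 0.185 ± 0.00661 with NUP-17d (p = 0.3, 2-sided exact permutation test, whose smallest possible p for 3 against 3 is 0.1). This and the 4 other ratios below were chosen after the values were seen, and no correction over the 5 can bring any of them under the threshold.

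Itga2b and Itgb3 encode the 2 chains of the fibrinogen receptor, integrin αIIb (CD41) and integrin β3. Itga2b (Entrez 16399, chr11:102453297-102469883) also marks early progenitors, while the β3 chain pairs with αv in other cells. Itga2b stood at 166, 174 and 169.8 CPM with DMSO and at 192, 179.8 and 184 with NUP-17d. All 3 treated cultures were above all 3 controls, by a narrow margin between NUP-17d culture 2 and DMSO culture 2. Its mean rose from 169.7 ± 3.96 to 185 ± 6.07 (log2 fold change 0.13, SE 0.036, adjusted p = 0.00790). Without NUP-17d culture 1, the log2 fold change was 0.10 and the call was lost (adjusted p = 0.0502).

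Itgb3 (Entrez 16416, chr11:104608000-104670476) stood at 87.9, 92.5 and 86.7 CPM with DMSO and at 115, 107 and 111 with NUP-17d. The gap between groups exceeded the range within either of them. The mean rose from 89.0 ± 3.07 to 111 ± 4.44, a 1.25-fold rise (log2 fold change 0.32, SE 0.040, 95% interval 0.24 to 0.40, adjusted p = 4.16e-07). In RNA counts, Itgb3 per Itga2b was 0.525 ± 0.0125 with DMSO and 0.6002 ± 0.00695 with NUP-17d. The groups did not overlap, but the test cannot pass the threshold (p = 0.1, 2-sided exact permutation test, the smallest it can give). The expected counts of Itgb3 were not whole numbers. Itgav, which encodes the αv chain that also pairs with β3, was at 25.1 ± 2.63 and 26.4 ± 1.148 CPM (log2 fold change 0.07, 95% interval -0.06 to 0.21, adjusted p = 0.421).

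Gp1bb and Gp9 encode small subunits of the von Willebrand factor receptor, glycoprotein Ib β and glycoprotein IX. Gp1bb (Entrez 14724, chr16:18620319-18622403) stood at 17.7, 18.3 and 19.1 CPM with DMSO and at 25.3, 24.9 and 26.0 with NUP-17d. The treated cultures lay close together and well above the controls. Its mean rose from 18.4 ± 0.723 to 25.4 ± 0.540, a 1.38-fold rise (log2 fold change 0.47, SE 0.059, 95% interval 0.34 to 0.59, adjusted p = 4.85e-07). In RefSeq's annotation Gp1bb shares 593 bases with Septin5 on the same strand. The expected count of Gp1bb was not a whole number in any culture, so reads may have been split between the genes. Septin5, which encodes a filament protein of platelets and neurons and is listed as Sept5, was at 11.95 ± 1.93 and 14.8 ± 1.85 CPM (log2 fold change 0.31, adjusted p = 0.0171 in edgeR and 0.0567 in DESeq2, which did not call it), and its groups overlapped.

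Gp9 (Entrez 54368, chr6:87776131-87779786) stood at 6.85, 7.38 and 7.90 CPM with DMSO and at 7.69, 7.13 and 8.89 with NUP-17d. The groups overlapped, with NUP-17d culture 2 below 2 of the controls. Its log2 fold change was 0.10 with a 95% interval of -0.12 to 0.32 (adjusted p = 0.513) under TMM scaling, and it was called under library totals (0.36, adjusted p = 0.00449). Gp1bb counts per Gp9 count were 2.49 ± 0.0780 with DMSO and 3.24 ± 0.290 with NUP-17d, with no overlap (p = 0.1, 2-sided exact permutation test). The 2 remaining subunits of the complex are not among the 10 genes, and both rose: Gp1ba, the chain that binds von Willebrand factor, from 24.2 ± 1.55 to 29.1 ± 1.58 CPM (log2 fold change 0.26, adjusted p = 0.00104), and Gp5 from 20.8 ± 1.88 to 24.4 ± 0.762 (log2 fold change 0.23, adjusted p = 0.00607).

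Gp6 encodes glycoprotein VI, the collagen receptor that signals through the Fc receptor γ chain. It was the one gene of the 10 that fell. Gp6 (Entrez 243816, chr7:4362853-4397851) stood at 4.64, 4.53 and 4.62 CPM with DMSO and at 2.71, 2.82 and 3.03 with NUP-17d. The highest treated culture was far below the lowest control, although the counts behind these values were small, between 60 and 86 reads a culture. The mean fell from 4.599 ± 0.0573 to 2.85 ± 0.158, which is 0.621 of the control level (log2 fold change -0.69, SE 0.14, 95% interval -0.98 to -0.39, adjusted p = 0.000413). Under library totals it was also lower (log2 fold change -0.42, adjusted p = 0.0116). Gp6 counts per Itga2b count were 0.0271 ± 0.000955 with DMSO and 0.0154 ± 0.00118 with NUP-17d, with no overlap (p = 0.1, 2-sided exact permutation test). Its signaling partner moved the other way: Fcer1g, the Fc receptor γ chain, which mast cells and macrophages also use, went from 166 ± 9.04 to 187 ± 8.03 CPM (log2 fold change 0.17, adjusted p = 0.00175).

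Vwf and Selp encode von Willebrand factor and P-selectin, an adhesive ligand and a leukocyte receptor that share storage granules, and endothelial cells make both. Vwf (Entrez 22371, chr6:125552948-125686679) stood at 101, 114 and 101 CPM with DMSO and at 133, 119.8 and 115 with NUP-17d. The groups did not overlap, but DMSO culture 2 and NUP-17d culture 3 were nearly level. Its mean rose from 106 ± 7.63 to 123 ± 9.30 (log2 fold change 0.21, SE 0.050, adjusted p = 0.00125).

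Selp (Entrez 20344, chr1:164115264-164150026) stood at 8.07, 9.38 and 8.005 CPM with DMSO and at 9.81, 10.9 and 10.1 with NUP-17d. The groups lay apart by less than the range of either. The mean went from 8.49 ± 0.779 to 10.3 ± 0.589 (log2 fold change 0.28, SE 0.093, adjusted p = 0.0220). DESeq2 did not call it (adjusted p = 0.107), and edgeR lost the call without DMSO culture 1, DMSO culture 3 or NUP-17d culture 2 (adjusted p of 0.0882, 0.0977 and 0.0970). Selp overlaps an antisense non-coding gene, Gm16548, over 1451 bases, and the sources used here do not settle whether strand was used in counting. Selp counts per Vwf count were 0.0803 ± 0.00153 and 0.0843 ± 0.00925 (p = 0.5, 2-sided exact permutation test).

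Treml1 encodes TREML1, a receptor held in the alpha granules of megakaryocytes and platelets until activation. Treml1 (Entrez 71326, chr17:48359916-48367176) stood at 10.003, 9.54 and 10.4 CPM with DMSO and at 13.1, 12.9 and 14.03 with NUP-17d. The lowest treated culture was above the highest control by more than the range within either group. The mean went from 9.97 ± 0.414 to 13.3 ± 0.603, a 1.34-fold rise (log2 fold change 0.42, SE 0.079, 95% interval 0.26 to 0.58, adjusted p = 0.000131).

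**Figure D2:**
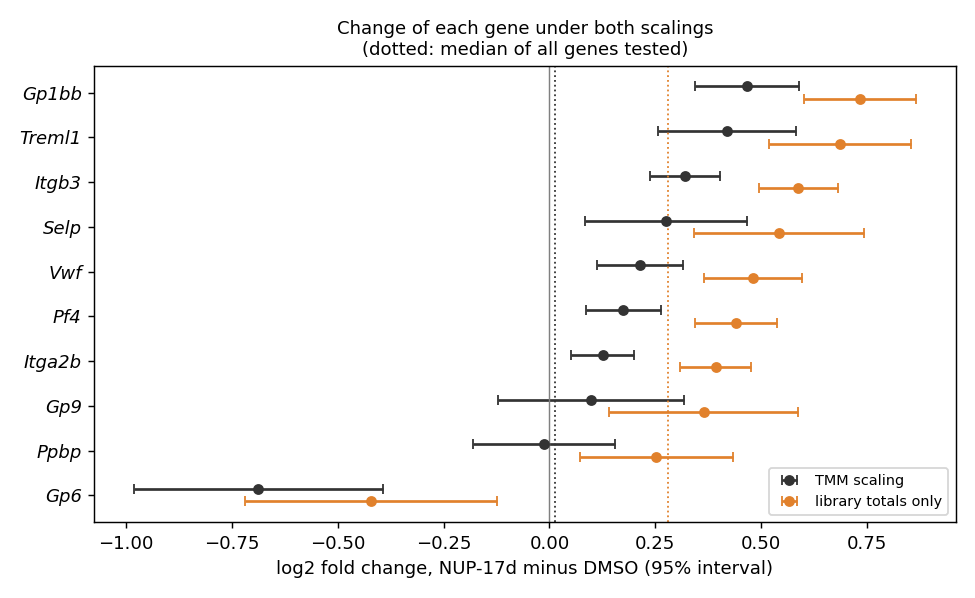
Log2 fold change of each gene, NUP-17d minus DMSO, with its 95% interval, under TMM scaling (black) and under library totals only (orange), and the median of all genes tested under each (dotted lines, 0.01 and 0.28). Ppbp moves from -0.01 to 0.25 and Gp6 stays below 0 under both.

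**Figure D3:**
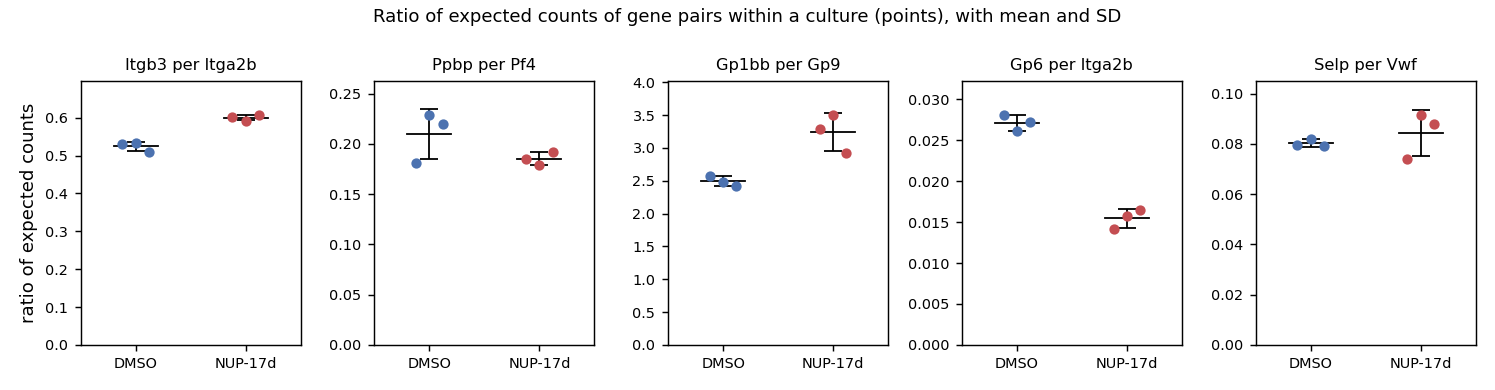
Ratio of the expected counts of 2 genes within each culture (points), with mean and SD, for 5 pairs, on axes that start at 0. The pairs Itgb3 per Itga2b, Gp1bb per Gp9 and Gp6 per Itga2b do not overlap between the groups, while Ppbp per Pf4 and Selp per Vwf do.

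Per transcript length, the 10 genes spanned a wide range of levels. The authors' FPKM divided by the TMM factor was highest for Pf4, at 206 ± 9.98 with DMSO and 233 ± 13.3 with NUP-17d, followed by Itga2b at 48.6 ± 1.16 and 53.2 ± 1.76. Ppbp came next at 23.6 ± 3.87 and 23.5 ± 2.03, so the neighbouring chemokine genes lay far apart in level in both groups. Itgb3 followed at 15.1 ± 0.521 and 18.9 ± 0.753, and Vwf at 11.7 ± 0.849 and 13.6 ± 1.04. These 5 genes kept their order in both groups. With DMSO, Gp1bb (9.80 ± 0.414) and Gp9 (9.28 ± 0.662) overlapped and stood above Treml1 (8.07 ± 0.339), Gp6 (4.02 ± 0.0452) and Selp (2.43 ± 0.221). With NUP-17d, Gp1bb (13.6 ± 0.302) overlapped Vwf instead, Treml1 (10.8 ± 0.480) overlapped Gp9 (9.97 ± 1.13), and Gp6 (2.50 ± 0.139) was below Selp (2.95 ± 0.169). Thus Gp6 and Selp exchanged the last and the next to last place, with no overlap in either group.

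Beyond the 10 genes, 88 other genes of platelets and megakaryocytes were grouped by role, also with earlier results of these data known. A place in these groups does not make a gene particular to platelets or megakaryocytes, and which cells carried its RNA was not tested. Of the 88, 86 were tested. Of these, 37 (43.0%) were called higher with NUP-17d, 8 (9.30%) lower and 41 were not called, with a median log2 fold change of 0.14. Over all genes tested, 16.4% were called higher and 18.9% lower, shares that also stand beside the counts of each group below. Under library totals, 72 were called higher and 4 lower, when 68.7% of all genes tested were called higher and 5.34% lower. The members of most groups that passed the test rose, and the transcription factors were the group in which more fell than rose, an order that held under TMM scaling and not under library totals (9 called higher and 4 lower).

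Among 15 adhesion receptors and their partners, 7 rose and none fell, with a median log2 fold change of 0.18. Cd9, a tetraspanin abundant on platelets, went from 126 ± 7.61 to 182 ± 5.05 CPM (log2 fold change 0.53, adjusted p = 3.95e-11). Itga6, the laminin receptor chain α6, and Cd36, a receptor for thrombospondin, rose by 0.43 and 0.39 on the log2 scale. The other 8, Itgav included, were not called.

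Among 13 receptors and enzymes of platelet agonists and cytokines, 6 rose and none fell, with a median of 0.24. F2r, a thrombin receptor, went from 136 ± 4.04 to 170.4 ± 3.31 CPM (log2 fold change 0.33, adjusted p = 4.01e-08). Whether cells of the platelet lineage carried its RNA in these cultures was not tested. F2rl2, a thrombin coreceptor of mouse platelets, P2ry1, an ADP receptor, and Ptgs1, the cyclooxygenase that starts thromboxane synthesis, rose by 0.34, 0.24 and 0.25. F2rl3, a further thrombin receptor of this list, was not called (log2 fold change 0.32, adjusted p = 0.0906). It is named after its values were seen.

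Of 15 signaling proteins, 8 rose and none fell, with a median of 0.14. Plek, which encodes pleckstrin, the platelet paralog of Plek2, went from 230 ± 10.2 to 296 ± 4.44 CPM (log2 fold change 0.37, adjusted p = 6.69e-09), the opposite direction to Plek2. Lat, an adaptor that acts below glycoprotein VI, Plcg2, the phospholipase it recruits, and Prkca, a protein kinase C, rose by 0.39, 0.22 and 0.23. Of 19 tested genes of granule cargo and granule formation, 10 rose and 1 fell, with a median of 0.16. Thbs1, thrombospondin 1, went from 430.1 ± 4.31 to 549 ± 32.8 CPM (log2 fold change 0.35, adjusted p = 3.62e-08), and Slc35d3, a gene of dense granule formation, Serpine2, a protease inhibitor, and Tgfb1 rose by 0.44, 0.29 and 0.16. The gene that fell was Srgn, the granule proteoglycan serglycin, named because it was the one that fell, with a log2 fold change of -0.15 (adjusted p = 0.00121) that was 0.11 under library totals. Of 8 tested cytoskeletal genes, Actn1 (α-actinin 1) and Myh9 (nonmuscle myosin IIA) rose, by 0.26 and 0.11, and 6 were not called.

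Among 16 transcription factors, 4 rose, 7 fell and 5 were not called, with a median of -0.09 under TMM scaling and 0.18 under library totals. Nfe2, needed for platelet release, went from 889 ± 28.7 to 583 ± 19.99 CPM (log2 fold change -0.61, adjusted p = 3.21e-13), and its partner Mafk fell by 0.63 (adjusted p = 2.29e-13). Tal1 fell by 0.41, and Gata1 went from 248 ± 4.17 to 197 ± 5.59 CPM (log2 fold change -0.33, adjusted p = 1.65e-08). All 4 of these factors also serve red cell development. Under library totals, Nfe2, Mafk and Tal1 were still called lower (-0.34, -0.36 and -0.14), and Gata1 was not called (-0.07, adjusted p = 0.0842). Of the 3 others that fell, Mafg and Runx1 stayed below 0 and Gfi1b turned from -0.17 to 0.10, and all 3 are named because they complete the 7. Among those that rose were Mef2c, Meis1 and Fli1, named because they rose, with log2 fold changes of 0.19, 0.18 and 0.14. Fli1, an ETS factor of megakaryocytes, went from 59.0 ± 4.35 to 64.9 ± 2.001 CPM (adjusted p = 0.0261).

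**Figure D4:**
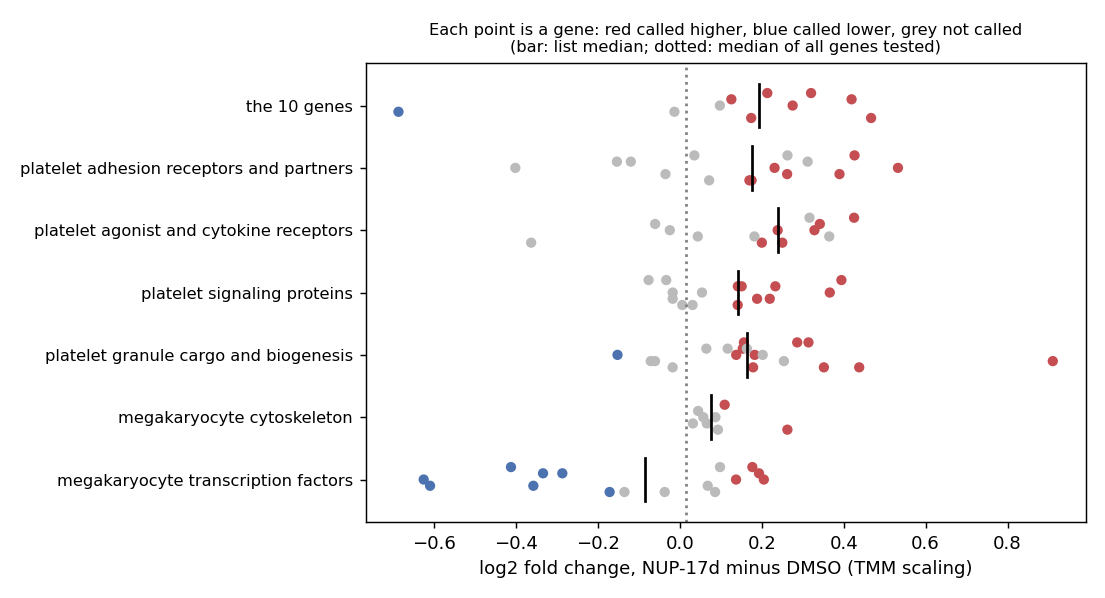
Log2 fold change of each tested gene, NUP-17d minus DMSO, for the 10 genes and 6 other groups of platelet and megakaryocyte genes. Red points were called higher, blue points lower and grey points not called, with each group's median as a bar and the median of all genes tested (0.01) as a dotted line. Blue points are found chiefly among the transcription factors.

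The label of the 10 genes was set against other markers. Genes that accompany platelet formation were near the bottom of the tested range in both groups, and were chosen for naming after their values were seen. Tubb1, the platelet β1-tubulin, was at 1.83 ± 0.443 CPM with DMSO and 1.87 ± 0.282 with NUP-17d (log2 fold change 0.03, 95% interval -0.41 to 0.47). Clec1b, the podoplanin receptor of platelets, was at 1.57 ± 0.382 and 1.42 ± 0.254 CPM, and Mpig6b, an inhibitory platelet receptor, at 1.54 ± 0.593 and 1.92 ± 0.148. Neither was called (adjusted p of 0.646 and 0.325), and the groups overlapped in all 3 genes.

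Several of the 10 genes are shared with other cells, so the summed levels of other cell types' markers were compared. Counts of called markers below stand beside 16.4% of all genes tested called higher and 18.9% lower. The 10 genes summed to between 539 and 587 CPM with DMSO and between 625 and 654 with NUP-17d. Erythroblast markers, which dominated the cultures, summed to between 25315 and 27235 CPM with DMSO and between 15501 and 16387 with NUP-17d. All 12 of them were called lower (median log2 fold change -0.67), though Klf1 was at 0.03 and not called under library totals.

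Endothelial cells make Vwf and Selp. Their markers summed to between 65.4 and 66.9 CPM with DMSO and between 74.7 and 77.9 with NUP-17d. Of 9 listed markers, 5 were tested, and Tek (7.51 ± 0.573 to 14.9 ± 0.284 CPM, log2 fold change 0.99) and Tie1 (0.37) rose, while Plvap fell by 0.64. Tek and Tie1 are also found in stem cells. Pecam1, which platelets and leukocytes also carry, made up most of the sum, at 40.7 ± 0.749 and 41.7 ± 1.11 CPM, and Kdr was at 5.598 ± 0.658 and 6.04 ± 0.656, neither of them called. Without Tek, the mean sum was 58.7 CPM with DMSO and 61.3 with NUP-17d. Cdh5, the defining cadherin of endothelium, was at 0.127 ± 0.0640 and 0.181 ± 0.00202 CPM, and Emcn, Ptprb and Stab2 were also near 0. Macrophages can carry Pf4, and osteoclasts carry Itgb3. Macrophage and monocyte markers summed to between 3596 and 3867 CPM with DMSO and between 3896 and 4207 with NUP-17d, with 3 of 14 called higher, 4 lower and a median log2 fold change of -0.05. The higher sum came from Lyz2, lysozyme, which neutrophils also make (2387 to 2700.3 CPM), and without it the mean sum was 1334 CPM with DMSO and 1328 with NUP-17d. Osteoclast markers summed to between 24.4 and 24.6 CPM and between 24.2 and 29.3, with 1 of 4 tested called higher and 1 lower.

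Early stem and progenitor cells express Itga2b and Vwf. Their markers summed to between 359.9 and 368 CPM with DMSO and between 363 and 378 with NUP-17d, with 3 of 9 tested called higher and 1 lower. Mast cell and basophil markers, whose cells share Fcer1g, summed to between 237 and 254 CPM with DMSO and between 209 and 217 with NUP-17d, with 1 of 7 tested called higher and 3 lower. Neutrophil markers summed to between 4090 and 4273 CPM and between 4170.2 and 4450.2, with 3 of 13 higher and 4 lower, and lymphoid markers to between 60.3 and 62.7 and between 68.1 and 73.9, with 1 of 9 tested higher, 2 lower and a median log2 fold change of -0.12. The higher lymphoid sum came from Il7r (29.0 to 41.2 CPM), and without it the mean sum was 32.6 CPM with DMSO and 29.0 with NUP-17d. Under library totals, 68.7% of all genes tested were called higher and 5.34% lower. The numbers called higher and lower were then 4 and 1 of 5 tested endothelial markers and 8 and 0 of 14 macrophage and monocyte markers. They were 2 and 0 of 4 for osteoclast, 7 and 0 of 9 for stem and progenitor, and 2 and 0 of 7 for mast cell and basophil markers. For neutrophil and lymphoid markers they were 9 and 2 of 13 and 2 and 1 of 9. The part of these cell types in the changes of the 10 genes was not tested.

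**Figure D5:**
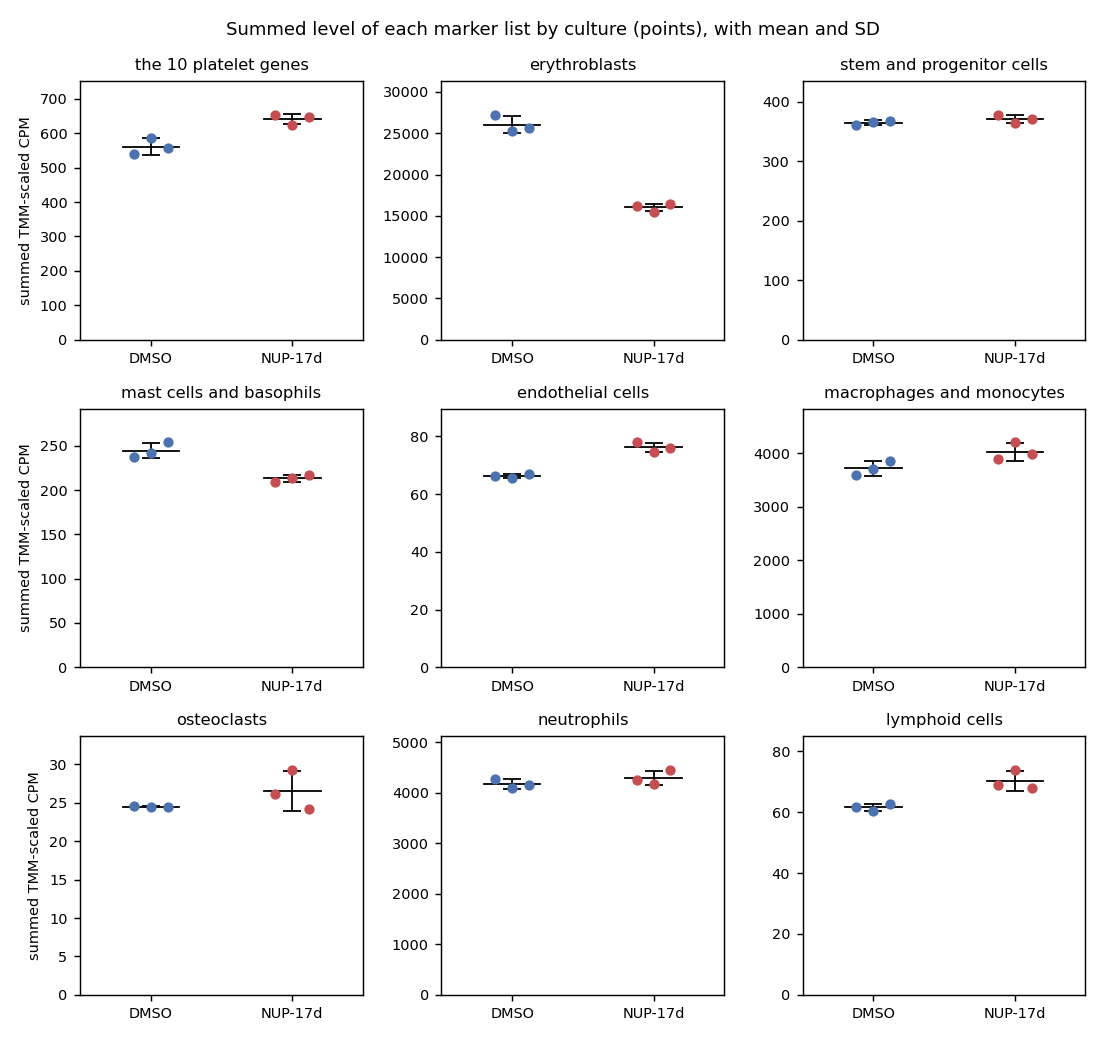
Summed TMM-scaled CPM (vertical axes, from 0) of the 10 platelet genes and of the markers of 8 other cell types in each culture (points), with mean and SD. The erythroblast sums and the mast cell and basophil sums are lower in every NUP-17d culture, and the sums of the 10 genes, the endothelial markers, the macrophage and monocyte markers and the lymphoid markers are higher in every NUP-17d culture, though without Lyz2 and Il7r the mean sums of the macrophage and lymphoid markers are lower with NUP-17d.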

How the data were processed

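Each culture has 1 table deposited by the authors. In it, expected counts are the estimated reads of each gene as deposited, without normalization, with 27.8% to 28.5% of values not whole, and FPKM values are those counts divided by the authors by transcript length and library total, uncorrected for composition. The submitters' processing notes name mm10. The aligner and counting program are not given in the sources used here. The sample labels and the study's methods name different library kits and instruments, so the strand setting was not settled. A gene missing from a culture's table was taken as 0.

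Expected counts were rounded and tested on the whole table in edgeR 4.0.16 (R 4.3.3) with filterByExpr, TMM factors (0.887 to 0.930 with DMSO and 1.08 to 1.11 with NUP-17d), the quasi-likelihood test and Benjamini-Hochberg adjustment over 12306 genes. The SE is the log2 fold change divided by the root of F, and intervals are 95%. Alternatives were DESeq2 1.42.0, library totals only, removal of hemoglobin genes, no filter, limma 3.58.1 with a pseudocount of 1 or of 0.1 added to FPKM before log2 (mean FPKM of 0.1 or more), a block on replicate number, and omission of each culture. The fits were tested on simulated data. Pairs of libraries of the same group differed by a chi-square per degree of freedom of 1.81 to 4.44, so none was counted as a duplicate.

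The 10 genes, the other lists and their roles were chosen with earlier results of these data known. Genes named are the 10, up to 4 called genes with the lowest p of each other list, complex partners (Gp1ba, Gp5, Fcer1g and Itgav) and Plek2. Septin5, Klf1, Pecam1, Kdr and the endothelial markers near 0 were named after their values were seen, and the text says where others were. The marker lists were used for sums and counts, and Mcpt4, Tpsab1, Cldn5 and Calcr in them are listed in no culture. Meis1, Gata2 and Pecam1 stand in 2 lists. Gene coordinates, overlaps and sequences come from RefSeq tables on GRCm38.p6. Some genes that the naming rule allows are not reported here.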

Additional observations from a re-analysis of the deposited data

How the results depend on the processing

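Pf4, Itgb3, Gp1bb, Gp6, Vwf and Treml1 kept their direction and their side of the threshold in all 13 alternatives. The choices that moved most were those without correction for composition, which shift the median of all genes. With library totals only, 72 other platelet and megakaryocyte genes were called higher, 4 lower, and 9115 of all genes were called, against 37, 8 and 4346 in edgeR with TMM. With limma on log2(FPKM + 1) these counts were 70, 3 and 8978, and on log2(FPKM + 0.1) they were 68, 3 and 8603. The log2 fold change of Ppbp turned positive in those 3 settings (0.25, 0.26 and 0.27), and was 0.088, 0.018, 0.023 and 0.022 without DMSO culture 2, DMSO culture 3, NUP-17d culture 1 and NUP-17d culture 2. Over the 6 fits that leave out 1 culture it ranged from -0.14 to 0.088. Gp9 was called in the same 3 settings (0.36, 0.33 and 0.36). Selp kept its call in 3 of the 6 fits that leave out a culture, with log2 fold changes from 0.23 to 0.35. In those fits, 6 to 7 of the 10 genes were called higher and 1 lower, 30 to 36 other platelet and megakaryocyte genes higher and 8 lower, and 3713 to 4008 of all genes were called. DESeq2 called 1276 genes higher and 1877 lower, against 2019 and 2327 in edgeR. The replicate block used the culture numbers of the labels, whose same-number deviations correlated at 0.0566, -0.00461 and -0.00317. Their mean was 0.0163, beside -0.00813 for different numbers, and 2 of 6 cultures correlated best with their own number. With 3 cultures a group, these values cannot settle whether the numbers pair the cultures. With the replicate block, 7 of the 10 genes were called higher and 1 lower, as without it, and 2121 of all genes higher and 2422 lower. Depth limits Gp6, Gp9, Treml1 and Selp most, with 60 to 306 reads a culture.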
